A study of Mus musculus with 8 samples.

Results

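The genes described here are Ppara and 7 genes of liver fatty acid oxidation and its control: Cpt1a, Cpt2, Acadm, Ehhadh, Pdk4, Fgf21 and Acot1. They were chosen by name, as textbook members and targets of this pathway, with earlier results of these data known. Each of the 8 symbols matched a single gene of the 32285 in the count tables. Their unique molecular identifiers (UMIs, one per captured RNA molecule) were summed per mouse over all barcodes with at least 300 genes detected, and again over nuclei sorted into cell classes by marker genes. Each gene passed the filter on low counts in the whole-library sums, so all 8 are described throughout.

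The sums come from 8 livers of male DIAMOND mice, which the labels give as 129A1/SvIm and C57BL/6J cross mice. All had been fed a Western diet (WD), a high-fat diet with fructose and glucose in the water, so none of the 8 livers was free of it. The 3 mice called WD tumour stayed on it for 48 weeks and carried hepatocellular carcinoma. The other 5 returned to standard chow after 36 weeks (reverse diet, RD). Of these, 2 carried carcinoma (RD tumour) and 3 had none that could be detected (RD no tumour). The protocol gives an age of 48 weeks at the end for every mouse, while the design text starts the diets well after birth, so the ages are uncertain. Livers were snap-frozen and nuclear RNA was read with droplet 3′-end libraries. The labels do not say whether a tumour-bearing liver was sampled in or beside a tumour, nor the feeding state or time of day at which the livers were taken.

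Fatty acids are burned in mitochondria and peroxisomes by beta-oxidation, in which carnitine palmitoyltransferases bring long chains into the mitochondrion and a series of dehydrogenases, hydratases and thiolases shortens them. PPAR alpha, the nuclear receptor encoded by Ppara, senses fatty acids and binds DNA with RXR to turn on many of these genes, above all in fasting. Fgf21 encodes a hormone that the liver releases under PPAR alpha and stress signals, and Pdk4 encodes a kinase that shuts pyruvate dehydrogenase and so spares glucose when fat is burned.

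The promoters of 4 of the genes are shown because they stand for different behaviours. Fgf21 and Acot1 varied most between mice, and Cpt1a varied least. Pdk4 had the largest difference by lobule position, and it alone was lower in hepatocyte than in endothelial nuclei, though that difference did not pass. Each sequence is the 250 bases before the RefSeq transcription start (GRCm38.p6), 5′ to 3′ on the gene's strand. The stretches are chr7:45615491-45615740 on the minus strand for Fgf21, chr12:84009252-84009501 on the plus strand for Acot1, chr19:3323051-3323300 on the plus strand for Cpt1a and chr6:5496279-5496528 on the minus strand for Pdk4. Capitals mark the letters that matched one of the motifs searched, on either strand.
Fgf21: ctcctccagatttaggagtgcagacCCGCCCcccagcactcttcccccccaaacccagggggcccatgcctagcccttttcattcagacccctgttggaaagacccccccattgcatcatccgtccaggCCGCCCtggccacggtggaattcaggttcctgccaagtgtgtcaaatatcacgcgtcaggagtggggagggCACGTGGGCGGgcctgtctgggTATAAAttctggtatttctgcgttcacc
Acot1: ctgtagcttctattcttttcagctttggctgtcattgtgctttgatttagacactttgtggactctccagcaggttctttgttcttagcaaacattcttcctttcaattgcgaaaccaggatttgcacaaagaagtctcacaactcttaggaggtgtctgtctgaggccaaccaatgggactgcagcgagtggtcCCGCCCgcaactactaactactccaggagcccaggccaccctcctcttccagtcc
Cpt1a: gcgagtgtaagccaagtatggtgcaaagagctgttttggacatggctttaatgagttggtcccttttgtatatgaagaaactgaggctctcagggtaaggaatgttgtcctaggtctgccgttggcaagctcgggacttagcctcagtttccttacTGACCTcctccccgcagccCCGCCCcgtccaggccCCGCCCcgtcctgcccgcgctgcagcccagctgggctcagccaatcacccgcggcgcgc
Pdk4: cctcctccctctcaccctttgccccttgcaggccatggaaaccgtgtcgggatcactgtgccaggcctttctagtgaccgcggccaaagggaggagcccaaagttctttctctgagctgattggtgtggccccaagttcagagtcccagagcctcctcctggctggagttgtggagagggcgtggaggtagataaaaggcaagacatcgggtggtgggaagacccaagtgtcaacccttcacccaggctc
The ideal PPAR element, a direct repeat of 2 AGGTCA hexamers with any 1 base between them, was in none of the 8 genes' windows and in 11 of 32851 promoter windows of the same length in RefSeq (0.0335%). The hexamer alone was in the windows of Cpt1a and Acadm, 2 of 8, against 14.0% of all promoters. TATAAA was in the Fgf21 window alone among the 8, 28 to 23 bases before the start, and in 12.4% of all promoters. CACGTG, the E-box, was also in the Fgf21 window alone, 50 to 45 bases before the start, where its last base is shared with a GGGCGG, and in 6.02% of all promoters. GGGCGG, the GC box, was in 6 of 8 windows, those of Acadm and Pdk4 being without it, and in 32.7% of all promoters. The Pdk4 window held no match to any of the 5 motifs. The RefSeq starts used for Acadm and Ehhadh did not match a transcript of the gene annotation, so their windows are less certain. The Cpt1a window lies inside the annotated span of the gene. These matches describe letters only.

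The libraries held 17948627 to 34363108 UMIs, and 6048 to 20000 barcodes per mouse passed with a median of 1120 to 2656 UMIs. RD tumour 1 stood apart: the correlation of its log profile with any other library was r = 0.811 to 0.892, while every other pair reached 0.931 or more, and its table held exactly 20000 barcodes. Whether that number was set or came from a call of nuclei is not given in the sources used here, so its counts and shares of nuclei are uncertain. Of its hepatocyte nuclei, 19.0% carried only the 5 markers required, against 0.293% to 2.93% elsewhere. In it 32.5% of the nuclei fell into no class, against 4.30% to 13.3% elsewhere. The median mitochondrial share was 7.91% in WD tumour 1 and 7.51% in WD tumour 3, and 1.30% to 3.28% in the rest. Any pair of libraries shared at most 62 barcodes. All 10 hepatocyte markers were detected in every library. Each group result was therefore also taken without RD tumour 1 and without its only partner, RD tumour 2.

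Levels are given as TMM-scaled counts per 1e6 UMIs (CPM). In such sums, fewer nuclei of a cell type and less RNA per nucleus cannot be told apart. Ppara (chr15:85734983-85802819, plus strand, GRCm38), the receptor itself, stood at 410, 909 and 956 CPM in RD no tumour 1 to 3, at 245 and 725 in RD tumour 1 and 2, and at 1762, 565 and 971 in WD tumour 1 to 3. The highest mouse, WD tumour 1, and the lowest, RD tumour 1, lay 7.19-fold apart, and the ranges of the 3 groups overlapped.

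The 2 carnitine palmitoyltransferases behaved unlike each other. Cpt1a (chr19:3322334-3385733, plus strand), the outer membrane enzyme that sets the rate of entry into the mitochondrion, was at 198, 224 and 357 CPM in RD no tumour livers, 180 and 304 in RD tumour, and 358, 137 and 203 in WD tumour. Its mice differed 2.61-fold at most, the narrowest range of the 8 genes. Cpt2 (chr4:107903981-107923610, minus strand), which hands the chain back to coenzyme A inside the mitochondrion, was at 31.9, 61.0 and 38.9 CPM in RD no tumour livers, 4.91 and 64.1 in RD tumour, and 50.8, 19.2 and 40.9 in WD tumour. The highest and the lowest Cpt2 values of all 8 mice were thus the 2 RD tumour livers.

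Acadm (chr3:153922357-153944632, minus strand), the medium-chain acyl-CoA dehydrogenase of the mitochondrial spiral, was at 122, 300.6 and 306 CPM in RD no tumour livers, 68.9 and 209.5 in RD tumour, and 318, 114 and 226 in WD tumour. Its ranges overlapped in all 3 groups. Ehhadh (chr16:21761287-21787807, minus strand), the bifunctional enzyme of the peroxisomal spiral, was at 32.4, 76.7 and 75.6 CPM in RD no tumour livers, 9.99 and 168 in RD tumour, and 86.5, 19.4 and 50.1 in WD tumour. For Ehhadh, too, the 2 RD tumour livers were the extremes of the study.

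Pdk4 (chr6:5483351-5496309, minus strand), the brake on pyruvate dehydrogenase, was at 19.8, 17.4 and 7.63 CPM in RD no tumour livers, 9.25 and 55.9 in RD tumour, and 17.8, 10.7 and 7.95 in WD tumour. RD tumour 2 was well above every other liver, and the remaining 7 lay between 7.63 and 19.8 with no order by group. Only 197 to 1618 Pdk4 UMIs were counted per library.

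Fgf21 (chr7:45613886-45615490, minus strand) gave the widest range. It was at 4.46, 28.9 and 28.3 CPM in RD no tumour livers, 0 and 74.3 in RD tumour, and 19.5, 4.95 and 15.3 in WD tumour. No Fgf21 UMI was seen among the 34363108 of RD tumour 1, the deepest library, while the others held 117 to 2149. A count of 0 there allows up to 3 UMIs, or 0.0873 CPM, so Fgf21 was at least 53.4-fold higher in RD no tumour 1 and at least 904-fold higher in RD tumour 2, for counting error only. Of 11173 genes with at least 100 UMIs in each of the other 7 libraries, 2 were at 0 in RD tumour 1: Fgf21 and Cyp4a12a, a fatty acid omega-hydroxylase. The same count was 1 for WD tumour 2 and 0 for each of the other 6 libraries.

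Acot1 (chr12:84009490-84018371, plus strand), a cytosolic thioesterase that frees fatty acids from coenzyme A, was at 0.952, 26.4 and 28.9 CPM in RD no tumour livers, 0.532 and 33.0 in RD tumour, and 21.0, 2.37 and 11.7 in WD tumour. It was close to absent in RD no tumour 1 (29 UMIs), RD tumour 1 (18) and WD tumour 2 (56), with 291 to 955 UMIs in the other 5. Acot1 shares 16.7% of its transcript's 31-base words with its neighbour Acot2, so reads in those stretches may have been dropped or placed on either gene.

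**Figure D1:**
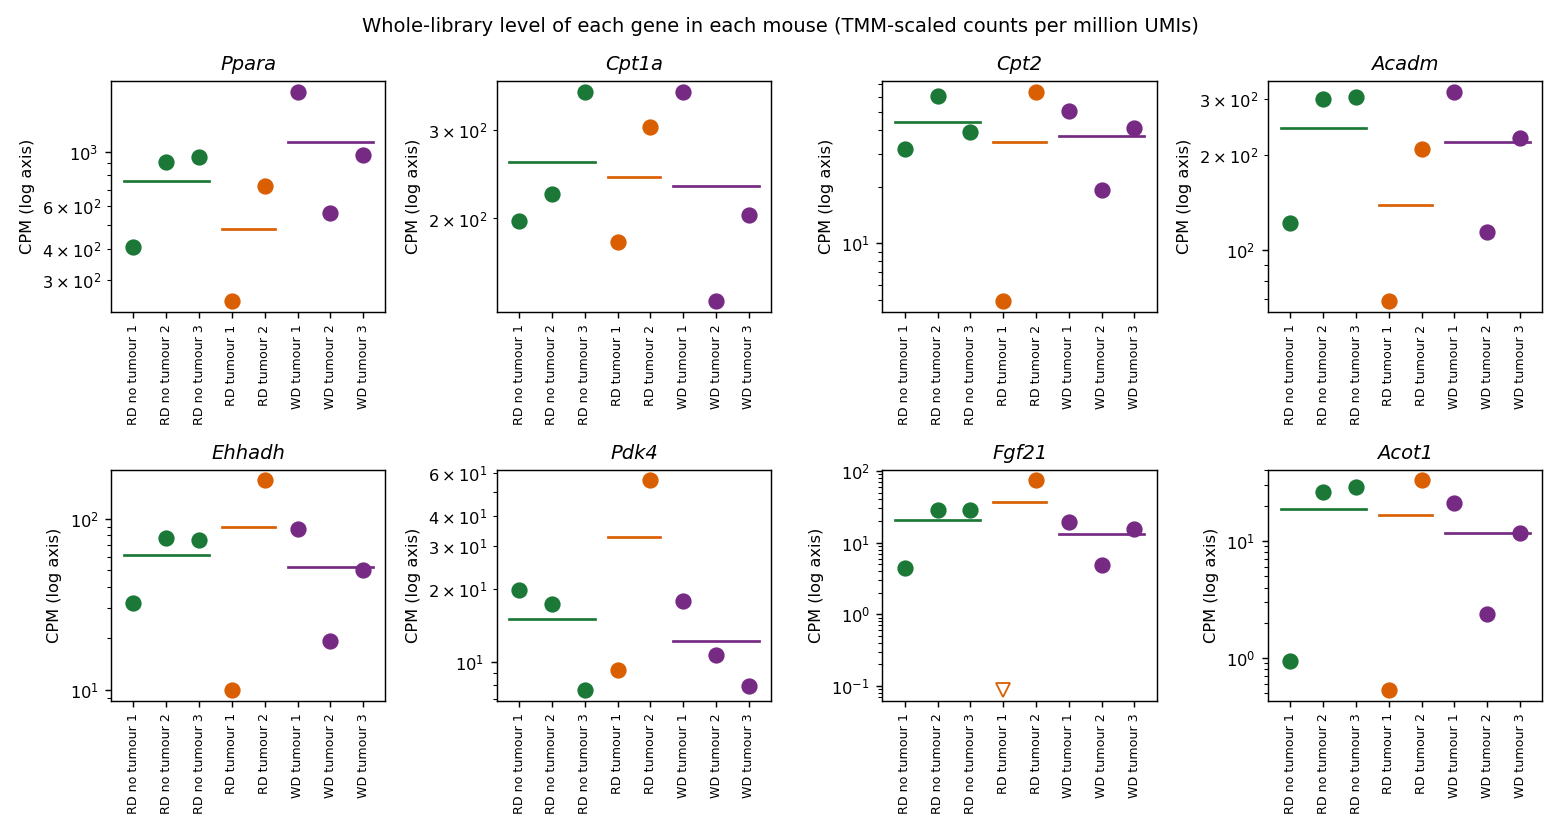
Level of each of the 8 genes in each liver (TMM-scaled CPM, log axis), 1 point per mouse, coloured by group, with a line at each group's mean. Fgf21 is at 0 in RD tumour 1 and is drawn at the level of 3 counts; the spread inside each group is as wide as any gap between groups.

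The low values of these genes fell in the same mice. In 7 of the 8 genes, all but Pdk4, the lowest 3 livers were RD no tumour 1, RD tumour 1 and WD tumour 2, 1 from each group, against 10.6% of the 19087 genes tested. Within hepatocyte nuclei it held for 6 of 8, Cpt1a leaving the set, against 9.13% of 17551 genes. These 3 mice were named after the values were seen, so the counts are a description. RD tumour 2 was the highest liver for Cpt2, Ehhadh, Pdk4, Fgf21 and Acot1, and WD tumour 1 for Ppara, Cpt1a and Acadm. RD tumour 2 also held markers of another tissue: the 5 pancreatic acinar markers summed to 279 CPM there and to 3.43 to 9.40 CPM in every other library, and 289 of its nuclei fell in the acinar gate against at most 1 elsewhere. Within its hepatocyte nuclei, where those markers still summed to 138 CPM, it remained the highest liver for Ehhadh, Pdk4, Fgf21 and Acot1 and was passed for Cpt2 by RD no tumour 2 (69.6 against 73.5 CPM). The part of the acinar RNA in these levels was not tested.

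The wider pathway showed the same mice at the bottom. Of the mitochondrial beta-oxidation list, 14 of 19 genes had their lowest 3 values in those livers, as did 14 of 18 of the peroxisomal list, 6 of 10 of the omega-oxidation list (the Cyp4a enzymes and their partners) and 3 of 5 of the ketogenesis list. Other lists came closer to the share of all genes, with 5 of 15 further PPAR alpha targets, 3 of 16 receptor partners and coregulators, 1 of 8 pyruvate dehydrogenase genes, 1 of 8 fasting-responsive genes and 1 of 13 clock genes. Within hepatocyte nuclei the 4 oxidation and ketone lists gave lower counts, 13 of 19, 10 of 18, 5 of 10 and 2 of 5, against 9.13% of all genes. In whole libraries the median omega-oxidation gene in RD tumour 1 stood at -3.60 log2 units from the RD no tumour mean. It stood at -0.92 in RD no tumour 1 and at -1.02 in WD tumour 2. In the other 5 livers that median lay between 0.10 and 0.67.

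**Figure D2:**
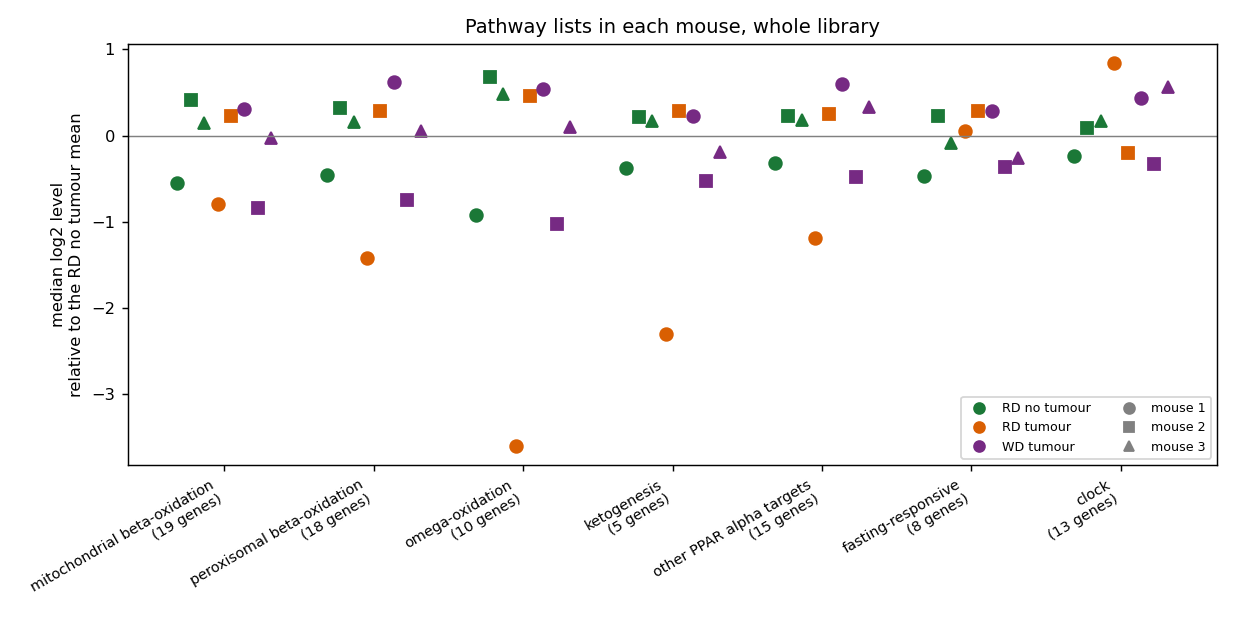
Median log2 difference from the RD no tumour mean, per mouse, for 7 pathway lists; 1 point per mouse, coloured by group and shaped by mouse number. RD tumour 1 lies lowest for omega-oxidation (-3.60) and ketogenesis (-2.30), and RD no tumour 1 and WD tumour 2 lie below the other 5 livers for the 4 oxidation and ketone lists.

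Some immune markers moved with these mice and others did not. The summed level of the 6 neutrophil markers was 2249 CPM in RD tumour 1, 626 in RD no tumour 1 and 168 in WD tumour 2, and 27.9 to 96.9 in the other 5, with no marker at 0 in any library. The neutrophil gate held only 73 nuclei (0.365%) in RD tumour 1, against 694 (6.75%) in RD no tumour 1 and 167 (2.36%) in WD tumour 2. Inside hepatocyte nuclei the neutrophil markers still summed to 1790, 256 and 109 CPM in these mice. Their level in RD tumour 1 is therefore no measure of its share of neutrophil nuclei. The macrophage and monocyte markers summed to 540, 895 and 801 CPM in the same order, against 321 to 573, so they did not separate RD tumour 1. The 6 dendritic markers summed to 119, 86.5 and 123 CPM against 51.5 to 72.2. T and NK markers, at 52.2, 154 and 126 CPM against 61.4 to 135, were lowest of all in RD tumour 1, and B cell markers, at 74.1, 159 and 146 against 73.1 to 153, overlapped. Pericentral hepatocyte markers summed to 456, 1274 and 1556 CPM against 1902 to 3524. Periportal markers were lower in these mice too, at 592, 655 and 339 CPM against 744 to 1457. The general hepatocyte markers summed to 23972, 35240 and 33747 against 24813 to 30377. The part of these cells or programmes in the levels of the oxidation genes was not tested.

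How far the livers differed can be read from the SD of log2 CPM over the 8 mice. It was 1.94 for Fgf21, 1.87 for Acot1, 1.27 for Ehhadh and 1.14 for Cpt2, higher than in 99.4%, 99.3%, 96.2% and 94.4% of all genes tested. Pdk4 (0.90), Ppara (0.87) and Acadm (0.81) came next, and Cpt1a, at 0.50, was near the median of all genes, 0.42.

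The first question of the design is whether livers that stayed on the Western diet and bore tumours differed from those brought back to chow that did not. No gene of the 8 passed in this comparison, and neither did any other: edgeR's quasi-likelihood test with Benjamini-Hochberg adjustment called 0 of 19087 genes at an adjusted p under 0.05 (0%), with 524 at an unadjusted p under 0.05, and DESeq2 called 36, none of them among the 8. The log2 fold change of WD tumour over RD no tumour was 0.54 for Ppara (95% interval -0.84 to 1.91, edgeR) and -0.63 for Fgf21 (-4.39 to 3.12). Cpt1a was at -0.16, Cpt2 at -0.25, Acadm at -0.15, Ehhadh at -0.24, Pdk4 at -0.30 and Acot1 at -0.68. The median of the 8 was -0.25, beside -0.0070 for all genes.

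The second comparison sets the reversed livers with tumours against those without, and the third sets the continued diet against the reversed diet in tumour-bearing livers. All 3 share groups pairwise, so their values are not independent. edgeR called 0 of 19087 genes (0%) in each, with 1279 and 1443 at an unadjusted p under 0.05, and DESeq2 called 64 and 109, none of them among the 8. For RD tumour over RD no tumour the log2 fold changes were -0.64 for Ppara, -0.10 for Cpt1a, -0.35 for Cpt2, -0.80 for Acadm, 0.53 for Ehhadh, 1.13 for Pdk4 (-0.57 to 2.82), 0.86 for Fgf21 and -0.16 for Acot1. For WD tumour over RD tumour they were 1.18 for Ppara (-0.41 to 2.77), -0.06 for Cpt1a, 0.10 for Cpt2, 0.66 for Acadm, -0.77 for Ehhadh, -1.42 for Pdk4 (-3.12 to 0.27), -1.49 for Fgf21 and -0.52 for Acot1.

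Restricting the sums to hepatocyte nuclei left all 3 comparisons with 0 of 17551 genes called by edgeR (0%), 552, 2146 and 1615 at an unadjusted p under 0.05, and 46, 476 and 194 called by DESeq2, again without any of the 8. Over both kinds of sum, none of the 48 values for the 8 genes had an unadjusted p under 0.05 in edgeR. The lowest was 0.0890, for Pdk4 in WD tumour against RD tumour. The 95% intervals reached 0.99 to 4.12 log2 units to either side, so smaller differences were not detectable with these mice. The p-values measure only the spread between these mice.

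The 2 RD tumour livers decided what any comparison with that group could call. With RD tumour 2 left out, RD tumour 1 was the whole group, under the assumption that a lone mouse varies like the other groups. A large part of all genes was called in that fit, so its calls are not read as results about the 8. Cpt2 was then at -3.18 against RD no tumour and at 2.93 for WD tumour over RD tumour 1 (edgeR). In hepatocyte nuclei the Cpt2 values were -3.58 and 3.28. Fgf21 was at 0 in that mouse, and only the lower bounds given for that count of 0 describe its size. With RD tumour 1 left out, 11 genes were called in RD tumour against RD no tumour, and none was of the 8. Pdk4 and Ehhadh then stood at 1.90 and 1.45 in that comparison, with RD tumour 2 as the whole group.

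**Figure D3:**
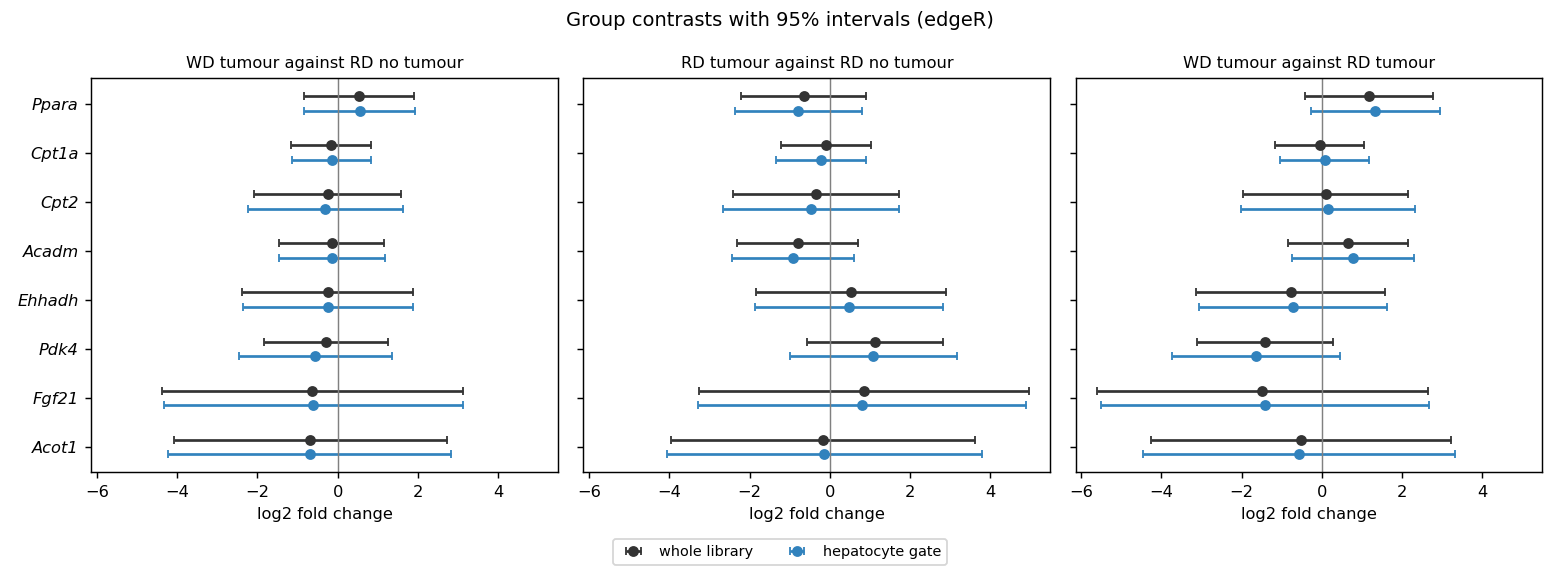
Log2 fold change of each gene in the 3 group comparisons with its 95% interval (edgeR), for whole-library sums (dark) and hepatocyte nuclei (blue). All 48 intervals include 0, and those of Fgf21 and Acot1 are the widest.

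The related genes fared no better in the whole-library comparisons, where no gene of the 10 pathway lists passed. Among mitochondrial genes the median log2 fold change was -0.14 in WD tumour over RD no tumour, -0.25 in RD tumour over RD no tumour and 0.18 in WD tumour over RD tumour. For omega-oxidation genes it was -0.18, -0.43 and 0.37. The 2 RD tumour livers went opposite ways here. Their median omega-oxidation gene stood at -3.60 log2 units from the RD no tumour mean in RD tumour 1 and at 0.46 in RD tumour 2. The largest values in these lists were those of Cyp4a12b (-2.42) in the first comparison, the clock gene Npas2 (3.42) in the second and Pdk3, a sister kinase of Pdk4 (-2.97), in the third, none past the adjusted threshold.

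Which cells carried the transcripts was asked within each mouse, by setting its hepatocyte nuclei against its other classes. Ppara was far higher in hepatocyte nuclei, by 2.75 log2 units over endothelial nuclei (95% interval 2.22 to 3.27, edgeR, adjusted p = 1.74e-06), 2.73 over stellate and fibroblast nuclei, 3.05 over macrophages and monocytes, 1.29 over T and NK nuclei and 1.51 over cholangiocytes. Fgf21 was next, at 2.07, 2.12, 2.17, 1.12 and 1.34 in the same order, and Cpt1a followed at 1.25, 1.24, 1.24, 0.73 and 0.74. Cpt2, Acadm and Ehhadh were higher by 0.44 to 1.11 in each of the 5 comparisons. All of these differences passed the test.

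Of the 8 genes, 6, 6, 7, 7 and 6 were called higher in hepatocyte nuclei over those 5 classes. Of all genes tested, 53%, 52%, 52%, 30.9% and 29.7% were called in either direction with 30.5%, 29%, 31.5%, 19.3% and 19.1% higher and 22.6%, 22.9%, 20.5%, 11.6% and 10.6% lower in hepatocytes. The lists of the same pathway went the same way against endothelial nuclei, with 17 of 18 peroxisomal, 9 of 10 omega-oxidation, 4 of 5 ketogenesis and 13 of 19 mitochondrial genes called higher and none lower. Some hepatocyte markers were not lower in other classes. Alb (-0.10), Ttr (-0.22) and Hpx (-0.25) did not pass between hepatocyte and endothelial nuclei, while Cps1 (2.01), Abcb11 (2.26) and Slco1b2 (1.84) did. Alb, Ttr and Hpx did not pass against stellate, macrophage or T and NK nuclei either, but were higher over cholangiocytes (0.38, 0.36 and 0.34, all passing). All of these genes are among the markers that define the hepatocyte gate. Hepatocyte RNA free in the suspension may enter every class, and its amount was not estimated. Low levels of the 8 genes in other classes were therefore not read as expression there.

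**Figure D4:**
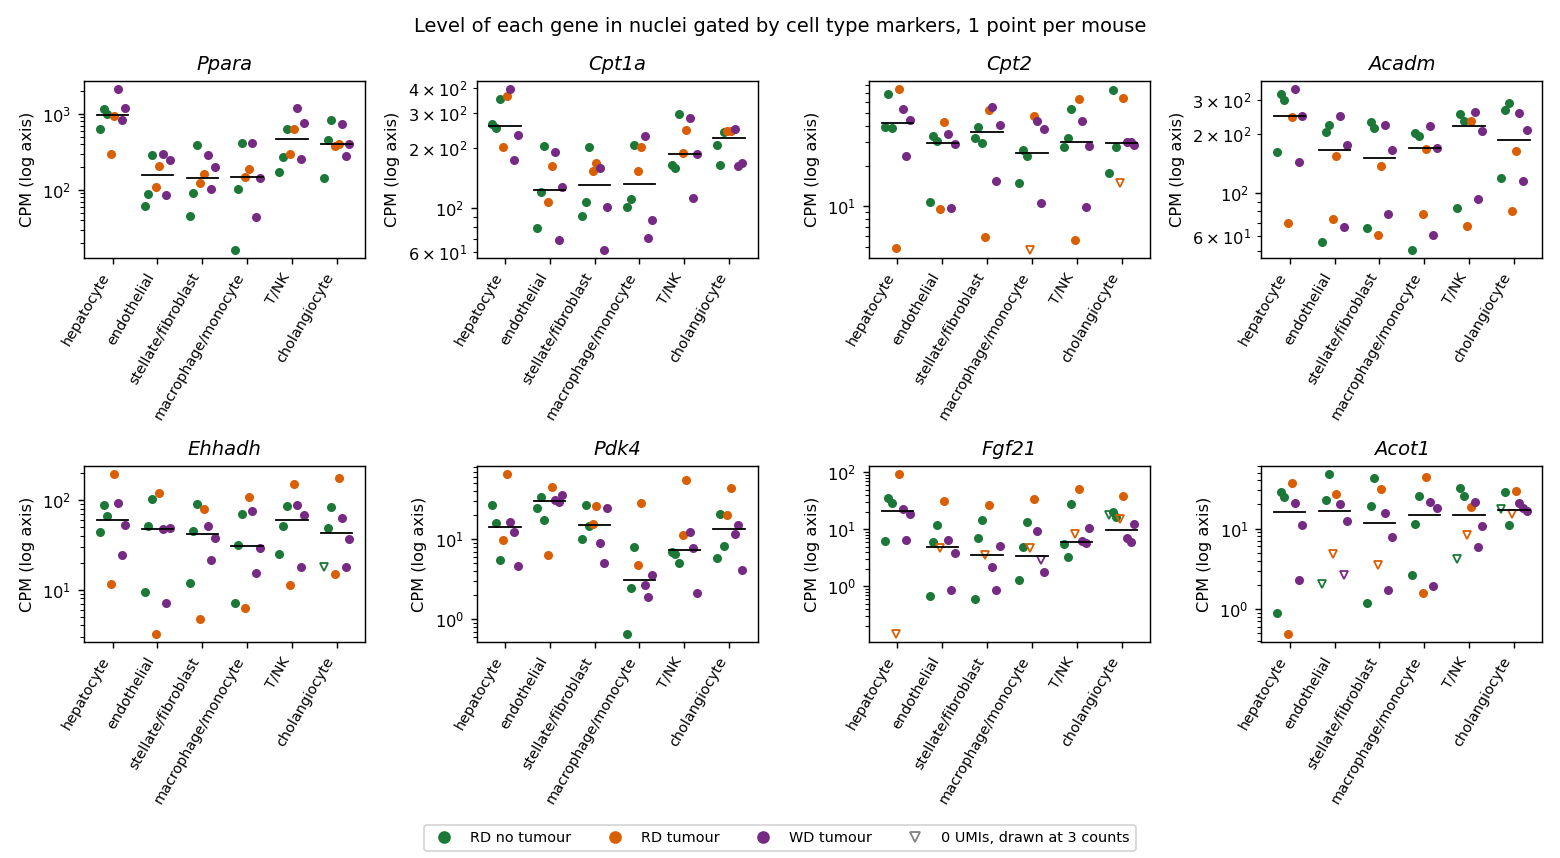
Level of each gene in nuclei gated by cell type markers (CPM without TMM scaling, log axis), 1 point per mouse, with a line at the median of the 8 mice. Open triangles mark classes with 0 UMIs, drawn at 3 counts. Ppara and Fgf21 are highest in hepatocyte nuclei, Pdk4 is highest in endothelial nuclei and Acot1 is nearly level.

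Acot1 was the exception on the flat side. Its differences of 0.19, 0.27, 0.16, 0.37 and 0.20 did not pass in any of the 5 comparisons, with an interval of -0.37 to 0.75 against endothelial nuclei. Pdk4 was the exception in the other direction. Over endothelial nuclei its hepatocyte level was -0.74 (-1.45 to -0.03), which did not pass (edgeR, adjusted p = 0.0752). It passed without RD tumour 1 (-0.81, adjusted p = 0.0337) and with a stricter marker gate (-0.95, adjusted p = 0.0248). Hepatocyte Pdk4 was higher than in macrophages and monocytes by 1.88 (adjusted p = 0.00454) and than in T and NK nuclei by 0.92 (adjusted p = 0.00867), and did not pass against stellate cells (0.02) or cholangiocytes (0.49).

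Endothelial Pdk4 was then set against macrophages and monocytes, a comparison added after these values were seen. It was at 24.8, 34.0 and 17.2 CPM in the endothelial nuclei of RD no tumour livers, 6.39 and 45.4 in RD tumour, and 30.6, 29.0 and 36.0 in WD tumour. In macrophages and monocytes it was at 0.653, 2.45 and 7.96, at 4.74 and 28.0, and at 2.69, 1.91 and 3.57, from 1 to 25 UMIs per mouse. Endothelial nuclei were higher in 8 of 8 mice, by 2.45 log2 units (1.55 to 3.36, edgeR, adjusted p = 0.000401), where 37.5% of 12878 genes were called, 20% as higher and 17.5% as lower. The other 7 genes did not pass, with differences of -0.00047 for Cpt1a to 0.30 for Ppara.

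Position along the lobule was asked among hepatocyte nuclei with at least 1500 UMIs, sorted by pericentral or periportal markers and compared within each mouse. Pdk4 and Acot1 were higher in pericentral nuclei and the other 6 did not pass, against 10.5% of 15637 genes called in either direction, 5.72% as higher and 4.83% as lower. Pdk4 stood at 49.97, 22.1 and 11.1 CPM in the pericentral nuclei of RD no tumour livers, 14.7 and 90.4 in RD tumour, and 23.9, 20.5 and 5.57 in WD tumour. In periportal nuclei it was at 14.8, 13.1 and 2.10, at 13.9 and 57.2, and at 12.96, 3.37 and 3.26. Pericentral nuclei were higher in 8 of 8 mice, by 1.15 log2 units (0.70 to 1.61, edgeR, adjusted p = 0.00319), though hardly at all in RD tumour 1 (0.08) and with only 5 periportal UMIs in WD tumour 2.

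Acot1 was higher in pericentral nuclei by 0.77 (0.42 to 1.12, edgeR, adjusted p = 0.00790), in 6 of 8 mice. The exceptions, RD tumour 1 and RD no tumour 1, had 1 to 5 Acot1 UMIs per zone, and WD tumour 2 had 4 and 1. The call was lost with DESeq2 (0.69, adjusted p = 0.0620) and without RD tumour 2 (0.63, edgeR, adjusted p = 0.0572). Among the genes that did not pass, Acadm was at 0.20 (adjusted p = 0.126), Fgf21 at 0.23, Ppara at 0.09, Cpt1a at -0.13, Cpt2 at -0.16 and Ehhadh at -0.20, all by edgeR. Cpt1a was nonetheless higher in periportal nuclei in 7 of 8 mice, and Ehhadh passed as lower in pericentral nuclei with a stricter gate (-0.46, adjusted p = 0.0193).

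**Figure D5:**
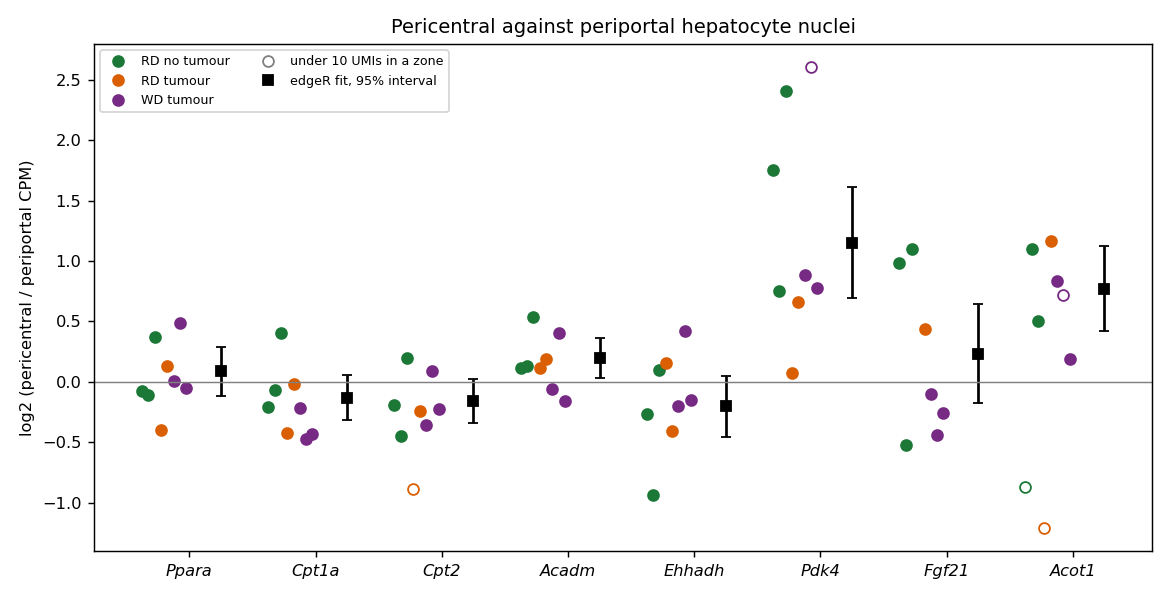
Log2 difference between pericentral and periportal hepatocyte nuclei within each mouse, 1 point per mouse, coloured by group and open where a zone held under 10 UMIs, with the edgeR estimate and its 95% interval in black. Pdk4 is above 0 in 8 of 8 mice, and the Acot1 points below 0 are RD no tumour 1 and RD tumour 1, with 1 to 5 UMIs per zone.

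The branches of fat oxidation were counted in the same way, where 5.72% of all genes were higher and 4.83% lower. Of omega-oxidation genes, 4 of 10 were higher in pericentral nuclei and none lower: Cyp4a12b (2.36), Aldh3a2 (1.95), Cyp4a12a (1.03) and Cyp4a14 (0.61), where the near-identical Cyp4a12 copies may trade reads. Of peroxisomal genes, 5 of 18 were higher, led by Pex11a (0.72), a peroxisome division protein, and Eci2 (0.43), and Abcd2 was lower (-0.51). None of the 19 mitochondrial or 5 ketogenesis genes passed in edgeR, with 1 and 0 at an unadjusted p under 0.05. Among receptor partners, Rxra was higher (0.29), and the coactivators Ppargc1a (-0.53) and Ppargc1b (-0.93) were lower, that is, higher in periportal nuclei. Of the fasting-responsive genes, G6pc (-0.80), Pck1 (-0.49), Srebf1 (-0.51) and Tat (-0.28) were lower in pericentral nuclei and Igfbp1 (0.72) higher. For FGF21 reception, Fgfr1 was lower (-3.00) and Fgfr2 higher (0.26). Whether the 2 branches differ from each other was not tested.

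Whether these zone differences themselves changed with diet or tumour was tested as an interaction. edgeR called none of the 8 genes, with 1, 0 and 0 genes of 15637 called in the 3 comparisons (0.0064%, 0% and 0%) and 1260, 556 and 917 at an unadjusted p under 0.05. The lowest p among the 8 was for Pdk4, whose pericentral excess differed by -0.98 log2 units for RD tumour against RD no tumour (edgeR, unadjusted p = 0.0408, adjusted p = 1).

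Finally, the genes whose level followed each of the 8 most closely over the 8 livers were listed from 8587 well-counted genes, as a description by Pearson's r of log2 CPM over livers that differ in depth and cell makeup. Fgf21 ran with Wdtc1 (0.989), Lgals4 (0.983) and Tmem56 (0.982), and Lgals4, a gut-type galectin, also led for Ehhadh (0.977). Cpt2 ran with Ntm (0.992), Acbd5 (0.991), a peroxisomal acyl-CoA binding protein, and Slc25a20 (0.991), the carnitine carrier that works between Cpt1a and Cpt2. Acadm ran with Mettl7a1 (0.994), Acot1 with Gclm (0.991), a glutathione synthesis subunit, and Ppara with Dnmbp (0.982). Cpt1a had no neighbour above 0.907 (Cisd3) and Pdk4 none above 0.930 (Tmem30a). An r over 0.9 was reached by 533 genes with Cpt2, 408 with Acadm, 291 with Fgf21 and 223 with Ppara. It was reached by 147 with Acot1, 142 with Ehhadh, 4 with Pdk4 and 3 with Cpt1a. The named genes are therefore the top of a pattern that many genes shared, and shared regulation was not tested. Without RD tumour 1, the coefficients of the 3 closest genes to each of the 8 lay between 0.895 and 0.997.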

How the data were processed

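Nuclear RNA of 8 livers was sequenced as droplet libraries, and the authors deposited raw UMI counts per gene and barcode, made with Cell Ranger 7.0.0 on mm10 per the submitters' processing notes; whether intronic reads were counted is not given in the sources used here. Counts were summed per mouse over barcodes with at least 300 genes, and over nuclei gated by marker genes: hepatocytes by at least 5 markers, other classes by at least 2 markers at 4 times the library's level. No clustering was done, and an expected doublet share was removed only as an alternative. Sums were tested in R 4.3.3 with edgeR 4.0.16 (TMM, filterByExpr, quasi-likelihood test, Benjamini-Hochberg, threshold 0.05) over the 3 groups together, with the mouse as a block between gates or zones. DESeq2 1.42.0 was an alternative, as were other scaling, filters, gates, a replicate block and each mouse left out. The code was tested on simulated counts.

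All 8 genes are named in every comparison. Of the pathway lists, the genes that passed are named, or the one with the largest change where none did, and for each of the 8 the 3 genes with the most similar level. The genes and lists were chosen with earlier results of these data known. Symbols are those of the files, coordinates come from the GRCm38 annotation and promoters from RefSeq.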

Additional observations from a re-analysis of the deposited data

Results flagged for a closer look

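Slc22a27, an organic anion transporter of the liver, was the 1 gene whose pericentral excess over periportal nuclei differed between groups, WD tumour against RD no tumour, by a log2 difference of -2.71 (SE 0.29, edgeR, adjusted p = 0.0182). Its pericentral and periportal levels were 64.5 and 3.49, 12.5 and 0.486, and 152 and 6.43 CPM in RD no tumour. They were 139 and 36.5, 140.3 and 34.4, and 185 and 76.7 CPM in WD tumour. The 2 groups' ratios did not overlap, in the same values that gave the call. Periportal nuclei held only 16, 3 and 52 UMIs of the gene in RD no tumour, against 107, 51 and 353 in WD tumour. In the RD tumour mice the pericentral and periportal levels were 7.34 and 3.48, and 21.3 and 3.91 CPM. RD tumour shares the diet of one of those groups and the tumours of the other, and neither of its own comparisons called the gene. Of the 15637 genes tested, 0.0064% were called, and none of the 8 oxidation genes. Its relation to them was not tested.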

How the results depend on the processing

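Calls over all genes depended on tool and library. DESeq2 called 36, 64 and 109 genes in the whole-library comparisons (first, continued diet with tumour over reversed without; then reversed with tumour over without; last, continued over reversed with tumour) and 46, 476 and 194 in hepatocyte nuclei, against 0 by edgeR. With each mouse left out in turn, edgeR called 0 to 4569 and 0 to 4438 genes in the second and last whole-library comparisons and 0 to 5168 and 0 to 4329 in hepatocyte nuclei, the high values all without RD tumour 2; without RD tumour 1, 11 genes were called in the second whole-library and 2 in the last hepatocyte comparison. A stricter gate raised the zone differences called in WD tumour against RD no tumour from 1 to 30. The cause was not tested.

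The labels do not say whether replicate numbers pair the mice. Deviations from the group mean correlated at -0.61 to 0.46 for same-numbered mice and at -0.58 to 0.70 for others. Deviations within a group depend on each other, so these values cannot decide whether the numbers pair mice. The replicate block changed no call of the 8 genes but turned signs. In whole libraries, WD tumour over RD no tumour became 0.0025 for Cpt2, 0.014 for Acadm, 0.085 for Ehhadh, 0.37 for Fgf21 and 0.86 for Acot1, RD tumour over RD no tumour 0.046 for Cpt1a, and WD tumour over RD tumour 0.16 for Fgf21 and 1.23 for Acot1. In hepatocyte nuclei with the replicate block, WD tumour over RD no tumour became 0.013 for Acadm, 0.056 for Ehhadh, 0.38 for Fgf21 and 0.92 for Acot1, and WD tumour over RD tumour -0.016 for Cpt1a, 0.31 for Fgf21 and 1.41 for Acot1.

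Cpt1a in WD tumour over RD tumour turned to 0.032 with at most 5% mitochondrial UMIs, to 0.0035 with expected doublets removed and, in hepatocyte nuclei, to -0.084 with the stricter gate. That gate also turned the zone difference of Ppara (-0.061) and Cpt2 (-0.041) in WD tumour against RD no tumour and of Ehhadh (-0.17) in RD tumour against RD no tumour, Pdk4 in hepatocyte over stellate nuclei (-0.045), and, in endothelial over macrophage nuclei, Ppara (-0.083) and Cpt1a (0.034). In the last comparison, without RD tumour 1, Cpt1a was at 0.031 and Cpt2 at -0.0092.

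Leaving out each mouse turned the sign of group values that had not passed. Over whole libraries, WD tumour over RD no tumour ranged from -0.62 to 0.13 for Cpt1a, -0.56 to 0.069 for Cpt2, -0.53 to 0.16 for Acadm and -0.84 to 0.15 for Ehhadh. RD tumour over RD no tumour ranged from -0.55 to 0.23 for Cpt1a, -3.18 to 0.54 for Cpt2, -2.64 to 1.45 for Ehhadh, -0.71 to 1.90 for Pdk4, -12.06 to 1.85 for Fgf21 and -5.14 to 0.82 for Acot1. WD tumour over RD tumour ranged from -0.54 to 0.39 for Cpt1a, -0.79 to 2.93 for Cpt2, -1.69 to 2.40 for Ehhadh, -2.20 to 0.41 for Pdk4, -2.49 to 11.43 for Fgf21 and -1.50 to 4.46 for Acot1. In hepatocyte nuclei the first comparison gave -0.62 to 0.11 for Cpt1a, -0.63 to 0.053 for Cpt2, -0.53 to 0.16 for Acadm and -0.87 to 0.14 for Ehhadh. The second gave -0.78 to 0.13 for Cpt1a, -3.58 to 0.42 for Cpt2, -2.78 to 1.38 for Ehhadh, -0.94 to 1.87 for Pdk4, -11.75 to 1.78 for Fgf21 and -5.48 to 0.83 for Acot1. The last gave -0.40 to 0.63 for Cpt1a, -0.73 to 3.28 for Cpt2, -1.62 to 2.53 for Ehhadh, -2.42 to 0.39 for Pdk4, -2.39 to 11.14 for Fgf21 and -1.54 to 4.78 for Acot1. Fits with Fgf21 at 0 in the lone RD tumour mouse depend on the prior count and are no bounds.

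Of the other values for the 8 genes under these alternatives, 872 planned and 36 added ones kept their sign and their side of the threshold. A further 2 lost their call. Ehhadh between zones and Pdk4 in hepatocyte over endothelial nuclei newly passed with the same sign, as given above. Without RD tumour 2, Cpt2 kept its sign and Fgf21 turned in the 4 comparisons with RD tumour. A lone mouse was then the RD tumour group, and a large part of all genes was called. Calls of Cpt2 and Fgf21 in those fits are therefore not read as results about these genes. Acot1 and Pdk4 in small classes rest on a few UMIs per mouse, which limits what their zone and class values can show.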

Other observations

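Lcn2, the acute-phase gene for lipocalin 2, which hepatocytes and neutrophils both make, was named after its values were seen. It stood at 2069 CPM in RD tumour 1, 1683 in RD no tumour 1 and 779 in WD tumour 2, and at 65.2 to 322 CPM in the other 5 livers. The 3 livers with the lowest Ppara, Cpt2, Acadm, Ehhadh, Fgf21 and Acot1 thus had the 3 highest Lcn2 values, with no overlap. Of the 19087 genes tested, 14.5% had their highest 3 values in these livers, so this pattern was common. Cyp4a12a, which shared with Fgf21 the count of 0 in RD tumour 1, had 10.997 CPM in RD no tumour 1. It had 16.2 CPM in WD tumour 2, and the remaining 5 livers held 34.0 to 132. Any part of an acute-phase response in these levels was not tested.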
